A study of Mus musculus with 12 samples.

Results

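A set of 10 transcripts of lipid efflux, lipid storage and liver X receptor (LXR) signalling was followed in BV2 cells exposed to oxyhaemoglobin. They were Nr1h2, Nr1h3, Abca1, Abcg1, Mylip, Apoe, Lpl, Plin2, Soat1 and Fabp5. The members were chosen by gene name, with earlier results of these data known. All 10 of 10 were found among the 22935 genes of the deposited count tables. BV2 is an immortalised mouse microglial line, so all libraries came from 1 line and no primary microglia were measured. Values come from 9 libraries in groups of 3, namely cells given oxy-Hb (10 uM) and nothing else, cells also given C3a, and cells also given C3aRA (50 uM). C3a is the complement peptide that binds the receptor C3aR, and the label gives it as 20 ug/ul, a unit that is uncertain for a peptide. The labels do not spell out C3aRA. Every group thus carried oxy-Hb, the oxygenated haemoglobin of red cells, and 3 PBS samples were not used here, so no value below is a response to oxy-Hb itself. Neither the exposure time nor the origin of replicates (separate cultures or not) is given in the sources used here. The p-values therefore reflect only how much these samples vary, and that variation may be technical.

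LXRs are nuclear receptors that bind oxysterols, pair with retinoid X receptors and switch on genes that move cholesterol out of the cell. Among their textbook targets are the membrane pumps ABCA1 and ABCG1, the particle protein APOE that accepts the exported sterol, lipoprotein lipase, and MYLIP, a ubiquitin ligase that limits lipoprotein uptake. Sterol that is not exported is esterified by SOAT1 and stored in droplets coated by PLIN2, a route that microglia use when they take up myelin lipid.

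Of the 10 transcripts, Lpl rose when C3a was added to oxy-Hb, by 1.34-fold, and no other passed the test of the 9 libraries in any of the 3 comparisons. That call was kept in 3 of 9 fits with 1 library left out, and was lost in a fit of oxy-Hb and C3a alone. With C3a, Apoe, Fabp5 and Soat1 stood above oxy-Hb in each library without passing. Nr1h2 and the pump Abcg1 stood below it in each library, also without passing. Groups were separate in this way for 27.8% of all genes tested. The pump Abca1 changed sign with the processing. C3aRA left all 10 without a call in the fit of 9 libraries, which called 0.0% of all genes tested there. A fit of these 2 groups alone called 4.43% of all genes and again 0 members. The order of the 10 by mean level per exon length was the same in the 3 groups.

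Total counts per library ran from 12934794 to 20479002. Of 12 microglial markers 11 had a row in the tables used here, and they summed to 1559 to 1668 CPM (counts scaled to equal library size) with oxy-Hb, 1705 to 1774 CPM with C3a and 1612 to 1730 CPM with C3aRA. Among them Cd68 (804 to 1004 CPM), Ptprc (379 to 496 CPM) and Csf1r (59.9 to 82.8 CPM) were present, Tmem119 reached at most 2.41 CPM, and Siglech had no count in the 9 libraries. Summed markers of other cells, over the genes with a row in the tables used here, reached at most 0.698 CPM for astrocytes (1 of 6 genes), 0.818 CPM for neurons (1 of 6), 1.62 CPM for red cells (2 of 6) and 35.3 CPM for oligodendrocytes (3 of 6). Endothelial or fibroblast markers (2 of 7) summed to 0.11 to 0.781 CPM with oxy-Hb, 1.42 to 2.06 CPM with C3a and 1.06 to 1.80 CPM with C3aRA. The library of C3a replicate 2 stood apart, with a first principal component score of 76.3 against -23.8 to 10.8 in the other 8 and ribosomal protein genes at 47960 CPM against 30742 to 35301 CPM. It held the highest value of the 9 libraries for 4 of the 10 members (26.7% of all genes tested) and the lowest for 1 (28.9%). The part of that library's state in the values below was not tested, and results that rest on it are given with and without it. RNA came from whole cultures, so fewer expressing cells and less RNA per cell cannot be told apart.

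Levels of different genes were compared as CPM per kilobase of exon, with all annotated exons of a gene merged. With oxy-Hb alone Apoe stood highest at 342 (range of 3 libraries 318 to 373) and Nr1h3 lowest at 1.43 (0.777 to 1.89). Between them came Fabp5 at 144 (134 to 152), Lpl at 128 (121 to 132), Plin2 at 60.6 (54.7 to 64.0), Soat1 at 33.5 (32.2 to 34.3), Nr1h2 at 10.2 (9.62 to 10.9), Mylip at 6.68 (5.85 to 7.23), Abcg1 at 4.69 (4.29 to 5.43) and Abca1 at 3.12 (2.84 to 3.43) CPM per kilobase. In these 3 libraries no neighbours in that order overlapped. With C3a, Fabp5 and Lpl overlapped, as did Nr1h2 and Mylip, Abcg1 and Abca1, and Abca1 and Nr1h3, and with C3aRA the overlapping neighbours were Mylip and Abcg1. The lipid carriers and storage genes were thus the abundant members, and the pumps and receptors the scarce ones. The place of Lpl rests on the length used, since its merged exons measure 10478 bases and its longest transcript 4115 bases. Over the longest transcript, the mean of the 9 libraries was 371 CPM per kilobase for Lpl and 178 for Fabp5, against 146 and 161 over merged exons. For Fabp5 these lengths were 3238 and 3567 bases. Levels over shorter transcripts, which would be higher, were not computed for any gene, so the order holds only for the lengths used.

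**Figure D1:**
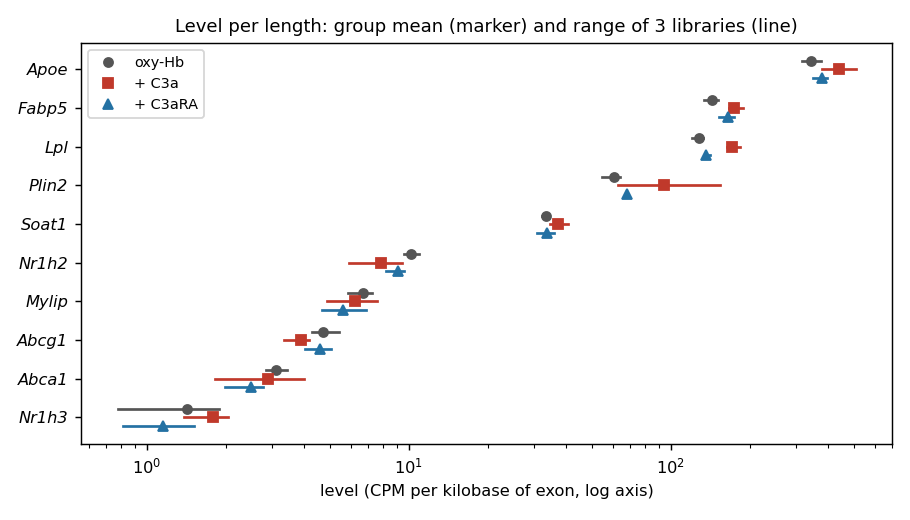
Level of each gene in CPM per kilobase of exon on a log axis, by group (circles oxy-Hb, squares oxy-Hb with C3a, triangles oxy-Hb with C3aRA); markers are group means and lines the range of 3 libraries. Apoe is the highest row, with group means from 342 to 441, and Nr1h3 the lowest, with means from 1.15 to 1.79.

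The 2 LXR genes were unequal in level, Nr1h2 (LXR-beta) being the receptor form found in most cells and Nr1h3 (LXR-alpha) the form that LXR itself can induce in human macrophages. Nr1h2 (ENSMUSG00000060601, GRCm38 chromosome 7, 44549616 to 44553951, minus strand) stood at 36.6, 32.3 and 33.6 CPM in oxy-Hb replicates 1 to 3, at 31.6, 27.7 and 19.9 CPM with C3a, and at 32.2, 27.5 and 32.1 CPM with C3aRA. Each library of either addition lay below every oxy-Hb library. The log2 fold change with C3a was -0.37 ± 0.16 (SE; adjusted p = 0.166) and with C3aRA -0.16 ± 0.16 (adjusted p = 0.833), so neither passed. With C3a it was -0.15 with a spline correction for gene length and base composition (the length and GC correction), and -0.105 with that correction and without C3a replicate 2. Uncorrected, it was -0.509 without C3a replicate 1, -0.415 without C3a replicate 2 and -0.205 without C3a replicate 3. It passed with library quality weights (-0.507, adjusted p = 0.0308). A pseudogene named after Nr1h2 is annotated, and reads shared with it could move the counts of Nr1h2.

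Nr1h3 (ENSMUSG00000002108, chromosome 2, 91184061 to 91202834, minus strand) had the fewest reads of the members, 26 to 90 counts per library. It stood at 4.09, 4.76 and 1.95 CPM with oxy-Hb, 4.86, 3.49 and 5.14 CPM with C3a, and 2.04, 2.83 and 3.82 CPM with C3aRA. The groups overlapped in all 3 comparisons. The interval of its difference between C3a and C3aRA ran from 0.912-fold to 2.59-fold (adjusted p = 0.299). Nr1h3 shares 34 exonic bases with the transcript Gm13783 on the same strand, which had 25 counts over the 9 libraries.

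The efflux pumps came next. ABCA1 loads cholesterol onto lipid-poor apolipoproteins, and its transcript (ENSMUSG00000015243, chromosome 4, 53030787 to 53159895, minus strand) is the longest of the members at 10262 bases. Abca1 stood at 35.6, 29.5 and 31.8 CPM with oxy-Hb, 41.2, 18.9 and 30.0 CPM with C3a, and 28.9, 20.7 and 28.4 CPM with C3aRA. The C3a group held both the highest and the lowest of the 9 values, the lowest in replicate 2, and overlapped the other groups, while the 3 C3aRA libraries lay below the 3 of oxy-Hb. With C3a the log2 fold change was -0.11 ± 0.23 (SE; adjusted p = 0.81), against 0.136 without C3a replicate 2 (adjusted p = 0.631) and -0.393 without C3a replicate 1 (adjusted p = 0.203). With C3aRA it was -0.31 ± 0.23 (SE; adjusted p = 0.756). Between both additions Abca1 stood 1.15-fold higher with C3a (adjusted p = 0.62), a log2 difference that was 0.449 and passed without C3a replicate 2 (adjusted p = 0.045), and -0.087 without C3a replicate 1 (adjusted p = 0.814).

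ABCG1 passes sterol on to mature lipoprotein particles. Its transcript (ENSMUSG00000024030, chromosome 17, 31057698 to 31115777, plus strand) stood at 31.3, 39.6 and 31.7 CPM with oxy-Hb, 30.4, 29.9 and 24.4 CPM with C3a, and 34.3, 29.4 and 36.9 CPM with C3aRA. The C3a libraries lay just below the oxy-Hb libraries, with a log2 fold change of -0.28 ± 0.14 (SE; adjusted p = 0.249). The length and GC correction brought it to -0.017 (adjusted p = 0.953), or -0.182 when C3a replicate 2 was left out too. With C3aRA, Abcg1 differed from oxy-Hb by -0.03 ± 0.14 (SE; adjusted p = 0.973) and the groups overlapped.

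Mylip (ENSMUSG00000038175, chromosome 13, 45389742 to 45412022, plus strand), the LXR target that limits lipoprotein uptake, stood at 22.4, 23.4 and 18.9 CPM with oxy-Hb, 24.5, 15.7 and 20.6 CPM with C3a, and 17.2, 15.0 and 22.1 CPM with C3aRA. The groups overlapped throughout. The 95% interval of the change with C3a ran from 0.712-fold to 1.23-fold, and with C3aRA from 0.637-fold to 1.11-fold.

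Apoe (ENSMUSG00000002985, chromosome 7, 19696109 to 19699188, minus strand), the carrier that takes up exported cholesterol, stood at 718, 679 and 798 CPM with oxy-Hb, 932, 1085 and 809 CPM with C3a, and 845, 746 and 832 CPM with C3aRA. All C3a libraries were above all oxy-Hb libraries, C3a replicate 3 by a narrow margin, while C3aRA overlapped both. The log2 fold change with C3a was 0.36 ± 0.12 (SE; adjusted p = 0.0886) and did not pass. It did pass without C3a replicate 2, at 0.246 (adjusted p = 0.0464), and after the length and GC correction, at 0.542 (adjusted p = 0.0157). With C3aRA the difference from oxy-Hb was 0.14 ± 0.12 (SE; adjusted p = 0.79). C3a exceeded C3aRA by 0.22 ± 0.12 (SE; adjusted p = 0.263), with an interval from 0.98-fold to 1.39-fold. Of 10109 genes averaging 5 CPM or more, those whose log2 CPM ran most like that of Apoe over the 9 libraries were Acot9 (Pearson r = 0.971), Anxa2 (0.968) and Ctss (0.958). For Abca1 they were Card6 (0.923), Dtx4 (0.919) and Gm14040 (0.918). These are descriptions over 9 libraries that share treatments, and without C3a replicate 2 the values were 0.936, 0.932 and 0.922 for the former and 0.964, 0.869 and 0.869 for the latter.

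**Figure D2:**
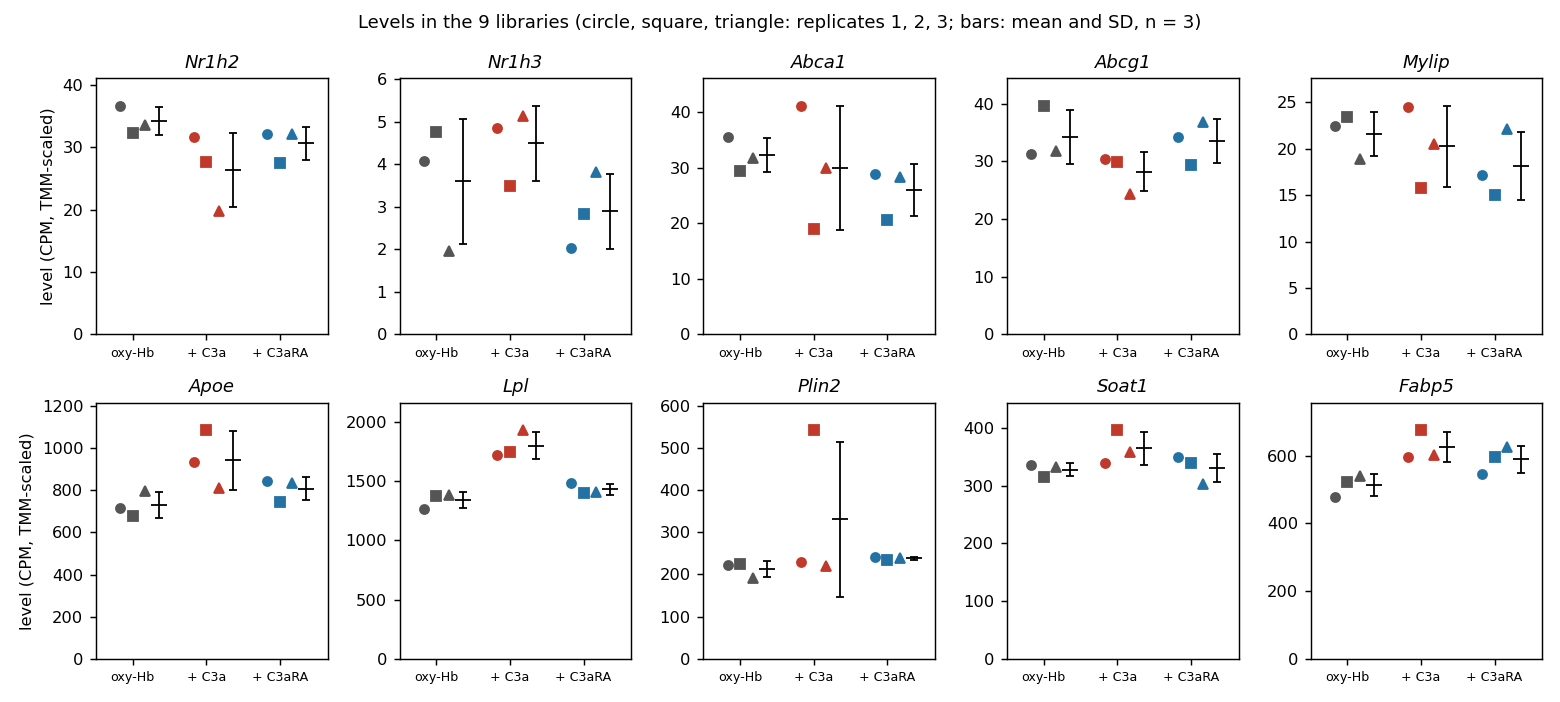
TMM-scaled CPM of each gene in the 9 libraries, on axes that start at 0; circles, squares and triangles are replicates 1, 2 and 3 of a group, and bars are the mean and SD of 3. All Lpl values with C3a (1723 to 1930) lie above the other 6, and the Plin2 value of C3a replicate 2 (542) lies far above the remaining 8 (192 to 241).

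Lpl encodes the lipase that frees fatty acids from lipoprotein triglyceride, and it was the member that passed (ENSMUSG00000015568, chromosome 8, 68880491 to 68907448, plus strand). It stood at 1267, 1371 and 1387 CPM with oxy-Hb, 1723, 1748 and 1930 CPM with C3a, and 1486, 1404 and 1406 CPM with C3aRA. The 3 C3a libraries were the highest of the 9, and replicate 2 lay within its group. With C3a against oxy-Hb the log2 fold change was 0.42 ± 0.09 (SE; adjusted p = 0.0253; 1.34-fold, interval 1.17 to 1.54). Lpl was 1 of 10 members called there, beside 3.94% of all genes tested (0.905% called higher). With each library dropped in turn, 3 of 9 fits kept the call. It was lost without oxy-Hb replicate 1 (0.387, adjusted p = 0.164) or 2 (0.443, adjusted p = 0.0951), C3a replicate 3 (0.375, adjusted p = 0.0695), C3aRA replicate 1 (0.418, adjusted p = 0.0561), 2 (0.418, adjusted p = 0.0613) or 3 (0.433, adjusted p = 0.0513), and in a fit of these 2 groups alone (0.412, adjusted p = 0.125). In the authors' deposited table the adjusted p of Lpl was 0.0183, and of the 22935 genes listed 87 passed higher and 421 lower. Against C3aRA, Lpl stood 1.26-fold higher with C3a (0.33 ± 0.09, SE) with an adjusted p of 0.0514, and this difference passed without C3a replicate 2 (0.346, adjusted p = 0.00138) or 1 (0.367, adjusted p = 0.0376).

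Soat1 encodes the enzyme that esterifies cholesterol for storage (ENSMUSG00000026600, chromosome 1, 156424525 to 156474331, minus strand). It stood at 336, 315 and 333 CPM with oxy-Hb, 340, 396 and 359 CPM with C3a, and 350, 340 and 303 CPM with C3aRA. It was the steadiest of the members, with a coefficient of variation of 7.8% over the 9 libraries. The lowest C3a value lay just above the highest of oxy-Hb, and the change was 0.15 ± 0.10 on the log2 scale (SE, adjusted p = 0.356). Without C3a replicate 2, its highest library, the change was 0.086 (adjusted p = 0.531). With C3aRA the interval ran from 0.87-fold to 1.17-fold.

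Plin2, the coat protein of lipid droplets (ENSMUSG00000028494, chromosome 4, 86648386 to 86670060, minus strand), was the most variable member, with a coefficient of variation of 40.9%. It stood at 222, 225 and 192 CPM with oxy-Hb, 229, 542 and 220 CPM with C3a, and 241, 234 and 240 CPM with C3aRA. One library, C3a replicate 2, thus set the C3a mean of 331 ± 183 CPM (SD, n = 3), and the other 2 C3a libraries lay among or next to those of oxy-Hb. The log2 fold change with C3a was 0.64 ± 0.28 (SE; adjusted p = 0.19), and 0.073 without C3a replicate 2 (adjusted p = 0.624). Against C3aRA the sign turned, from 0.47 ± 0.28 (SE; adjusted p = 0.319) to -0.09 without that library (adjusted p = 0.519). The C3aRA libraries were all above those of oxy-Hb and close together (238 ± 3.57 CPM, SD, n = 3, against 213 ± 17.9 CPM), a difference of 0.16 ± 0.28 (SE; adjusted p = 0.916). That SE rests on a spread estimated over all 9 libraries, C3a replicate 2 among them, which is in neither group compared. With the length and GC correction and without that library, Plin2 was called there (adjusted p = 0.0149, beside 7.64% of all genes).

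Abca1 was at its lowest of the 9 libraries and Plin2 at its highest in C3a replicate 2, and their promoter windows are shown for that reason. Each runs from 250 bases before to 50 after the start site, from RefSeq on GRCm38.p6, 5′ to 3′ on the gene's own strand; capitals mark exact matches to the letters searched.
Abca1 (chr4:53159846-53160145, minus strand): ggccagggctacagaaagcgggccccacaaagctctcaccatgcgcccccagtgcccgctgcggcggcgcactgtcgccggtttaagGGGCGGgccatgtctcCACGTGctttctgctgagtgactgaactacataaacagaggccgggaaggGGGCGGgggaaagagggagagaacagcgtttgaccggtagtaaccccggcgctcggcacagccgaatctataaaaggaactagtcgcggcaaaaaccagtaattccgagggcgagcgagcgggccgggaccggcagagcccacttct
Plin2 (chr4:86670010-86670309, minus strand): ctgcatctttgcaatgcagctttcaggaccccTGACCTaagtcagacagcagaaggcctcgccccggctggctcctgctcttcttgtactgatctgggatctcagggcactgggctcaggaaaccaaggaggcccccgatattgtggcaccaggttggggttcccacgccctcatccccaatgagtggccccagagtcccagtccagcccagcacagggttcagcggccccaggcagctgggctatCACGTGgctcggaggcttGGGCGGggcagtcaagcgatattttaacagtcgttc
Windows were found for 7 of the 10 members, 10 in all, and both strands were searched for 4 motifs. Windows 1 and 2 of Nr1h3 overlap each other, as do windows 2 and 3 of Apoe, so the 10 are not separate promoters. The LXR element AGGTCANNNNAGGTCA was in 0 of the 10 windows and in 0.0152% of 32851 promoters. Its unit AGGTCA alone was in 1 window, that of Plin2, where it starts 218 bases before the start site and reads TGACCT on the strand printed, and in 16.3% of all promoters. The E-box CACGTG was in 2 windows, Abca1 (147 bases before) and Plin2 (4 before), and in 7.15% of all, and the box GGGCGG was in 4 windows (Abca1, Plin2, Soat1 and Mylip) and in 35.7% of all. A unit can be part of the longer element, and none of the other motifs overlapped in these windows. A match describes letters, not a bound site, and the absence of one says only that these exact letters are not in the window.

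Fabp5 encodes a fatty acid chaperone of the cytosol (ENSMUSG00000027533, chromosome 3, 10012548 to 10016607, plus strand). It stood at 477, 521 and 541 CPM with oxy-Hb, 597, 675 and 601 CPM with C3a, and 547, 596 and 625 CPM with C3aRA. Both additions stood above all oxy-Hb libraries and overlapped each other. The log2 fold change was 0.28 ± 0.10 with C3a (SE, adjusted p = 0.111) and 0.20 ± 0.10 with C3aRA (SE, adjusted p = 0.632), and the 2 comparisons share their control libraries. Without C3a replicate 2, its highest library, the change with C3a was 0.218 (adjusted p = 0.0623). The difference between both additions was 0.08 ± 0.10, with an interval from 0.913-fold to 1.23-fold. In the authors' deposited table Fabp5 was the 1 member that passed with C3aRA (log2 fold change 0.20, adjusted p = 0.0453). Of the 22935 genes listed there, 473 passed higher and 242 lower. A pseudogene named after Fabp5 is annotated as well, so the counts of Fabp5 are uncertain. Pseudogenes under other names were not searched for, for any member.

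**Figure D3:**
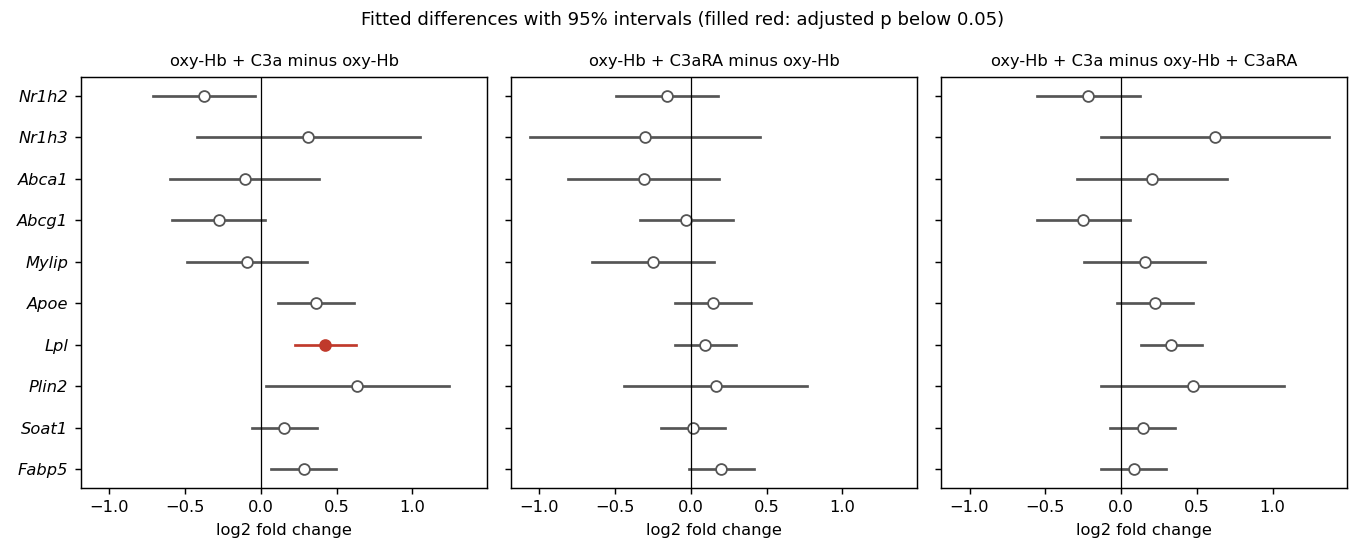
Fitted log2 fold change of each gene (points) with its 95% interval (lines) in the 3 comparisons; filled red marks an adjusted p below 0.05. Lpl with C3a against oxy-Hb (0.42) is the 1 filled point, and the widest intervals are those of Nr1h3 and Plin2.

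Counted over the members, which were chosen with earlier results of these data known, 6 had a log2 fold change above 0 and 4 below with C3a against oxy-Hb. Their median was 0.22, beside 0.0016 over all genes tested, and 0.11 beside -0.0066 without C3a replicate 2. The 1 call was upward and 0 members were called lower, beside 3.04% of all genes called lower. An unadjusted p below 0.05 was found for 5 of 10 (Lpl, Apoe, Fabp5, Nr1h2 and Plin2), beside 24.1% of all genes. Groups were fully separate for 6 of 10, beside 27.8% of all genes. Lpl, Apoe, Fabp5 and Soat1 were on the higher side (13.2% of all genes) and Nr1h2 and Abcg1 on the lower (14.6%). Lpl and Apoe were both called without C3a replicate 2 (9.55% of all genes), with DESeq2 (9.56%) and with the length and GC correction (7.1%). Fabp5 joined them when that correction was combined with leaving out C3a replicate 2 (11.5%), and Fabp5 and Nr1h2 did with quality weights (11.4%). The fit of these 2 groups alone called 0 members, beside 0.72% of all genes.

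With C3aRA against oxy-Hb, 5 members were above and 5 below 0, with a median of -0.0088 beside -0.0117. No member was called by edgeR (0.0% of all genes), DESeq2 (0.0778%), the edgeR fit without C3a replicate 2 (3.25%) or that of these 2 groups alone (4.43%). An unadjusted p below 0.05 was found for 0 members, beside 8.15% of all genes. Fabp5, Lpl and Plin2 were separate and higher (11.9% of all genes), and Abca1 and Nr1h2 separate and lower (11.0%), in all 5 of 10 beside 22.9%. Fabp5 and Plin2 were called when the length and GC correction was joined with leaving out C3a replicate 2 (7.64%).

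With C3a against C3aRA, 8 members were above and 2 below 0, with a median of 0.18 beside 0.0083. No member was called by edgeR in either direction, beside 6.19% of all genes (2.87% higher and 3.32% lower). Lpl was the 1 member with an unadjusted p below 0.05 (24.2% of all genes) and the 1 whose groups were separate (28.8%, with 14.1% higher and 14.7% lower). It was called by DESeq2 (10.8%), with the length and GC correction (8.29%) and with library quality weights (13.8%), and without C3a replicate 2 together with Abca1 (12.5%).

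Further genes of the pathway were read from 4 lists, whose counts stand beside the same shares of all genes. With C3a against oxy-Hb these were 0.905% called higher and 3.04% lower (9.55% in all without C3a replicate 2), with C3aRA 0.0% (3.25%), and between the additions 2.87% higher and 3.32% lower (12.5%). The first list was drawn up as partners and other targets of LXR. Whether LXR controls its genes in these cells, Abca7 included, was not tested. Of its 24 genes 16 could be tested, and 2 fell with C3a against oxy-Hb while 0 rose (median log2 fold change -0.279, -0.167 without C3a replicate 2 and -0.065 with the length and GC correction). Abca7, a relative of Abca1 that moves phospholipid, fell from 33.2 ± 5.69 to 15.0 ± 3.63 CPM (SD, n = 3; -1.14 ± 0.18, SE; adjusted p = 0.00433). Ncoa3, a coactivator of nuclear receptors, fell by 0.67 on the log2 scale (adjusted p = 0.049). Both were lowest in C3a replicate 2 (11.3 and 54.9 CPM), and both passed without it (-0.974 and -0.456). In a fit of the 2 groups alone Abca7 passed and Ncoa3 did not. With C3aRA against oxy-Hb 0 of the 16 passed, and Scd2, a fatty acid desaturase, had the lowest p (-0.38 ± 0.11, SE; adjusted p = 0.479). Without C3a replicate 2, Scd2 (-0.377, adjusted p = 0.00188) and the coactivator Ncoa1 (0.354, adjusted p = 0.0413) passed, as they did in the fit of these 2 groups alone. Between both additions 1 was higher and 3 lower with C3a, namely Lpcat3 (0.51), an LXR target that remodels membrane phospholipid, Abca7 (-1.03), Ncoa3 (-0.72) and Ncoa1 (-0.68). Without C3a replicate 2 these counts were 2 and 4, and in the fit of these 2 groups alone 0 and 1 (Abca7).

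Of 20 genes of lipoprotein uptake and lysosomal sterol export, 17 were tested, and with C3a against oxy-Hb 2 fell and 0 rose. The median of the 17 was -0.022, against 0.037 without C3a replicate 2 and 0.084 with the length and GC correction. Lrp1, an endocytic receptor that takes up APOE particles, fell from 326 ± 17.03 to 142 ± 54.1 CPM (SD, n = 3; -1.20 ± 0.23, SE; adjusted p = 0.0184), and stood at -0.92 without C3a replicate 2. Gramd1b, which carries sterol from the plasma membrane to the endoplasmic reticulum, fell by 0.51 (adjusted p = 0.0246). In a fit of the 2 groups alone neither passed, and after the length and GC correction Lrp1 passed and Gramd1b did not. With C3aRA against oxy-Hb 0 of 17 passed, and Lrp1 had the lowest p (-0.64 ± 0.23, SE; adjusted p = 0.518). Without C3a replicate 2, Lrp1 passed there (-0.639, adjusted p = 8.18e-06), and the 2-group fit called Lrp1 and Npc2, a lysosomal sterol carrier. Between the additions Gramd1b alone passed (-0.40, adjusted p = 0.0499). Without C3a replicate 2, 1 was higher and 4 were lower there, and Gramd1b did not pass with the length and GC correction or in the 2-group fit.

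Of 26 further genes of lipid droplet storage and breakdown, 19 were tested and 0 passed with C3a against oxy-Hb (median 0.11), Acsl4, a ligase that activates arachidonic acid, having the lowest p (0.30 ± 0.09, SE; adjusted p = 0.081). Without C3a replicate 2, 2 of these 19 rose (Acsl1 and Acsl4) and 1 fell (Soat2), and the median was -0.005. With the length and GC correction 3 rose and 0 fell (Acsl1, Acsl4 and Gpat4; median 0.17), and with DESeq2 Acsl4 rose. With C3aRA 0 passed (median 0.13), and Agpat2, an acyltransferase of glycerolipid synthesis, had the lowest p (-0.41 ± 0.19, SE; adjusted p = 0.605). Between the additions Lpin2, a phosphatidate phosphatase, was lower with C3a (-0.49, adjusted p = 0.0431), 3 were without C3a replicate 2, and 0 were in the 2-group fit. Of 13 genes of fatty acid binding and the PPAR receptors, 11 were tested and 0 passed in the 3 comparisons. Without C3a replicate 2, Slc27a1, a fatty acid transporter, fell with C3a, and Fabp4 passed with C3aRA against oxy-Hb (0.319) and between the additions (-0.335). DESeq2 called Ppard and Ppargc1b lower with C3a against oxy-Hb, and the 2-group fit called Fabp4 with C3aRA. The lowest p were those of Ppard with C3a against oxy-Hb (-0.47 ± 0.13, SE; adjusted p = 0.0644) and against C3aRA (-0.35 ± 0.13, SE; adjusted p = 0.137), and of Fabp4 with C3aRA against oxy-Hb (0.32 ± 0.13, SE; adjusted p = 0.557). Fabp4, a fat cell and macrophage gene, stood at 377 ± 9.99 CPM with C3aRA and 302 ± 20.3 CPM with oxy-Hb (SD, n = 3), and Adipoq, which marks fat cells, had at most 3 counts in any library.

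**Figure D4:**
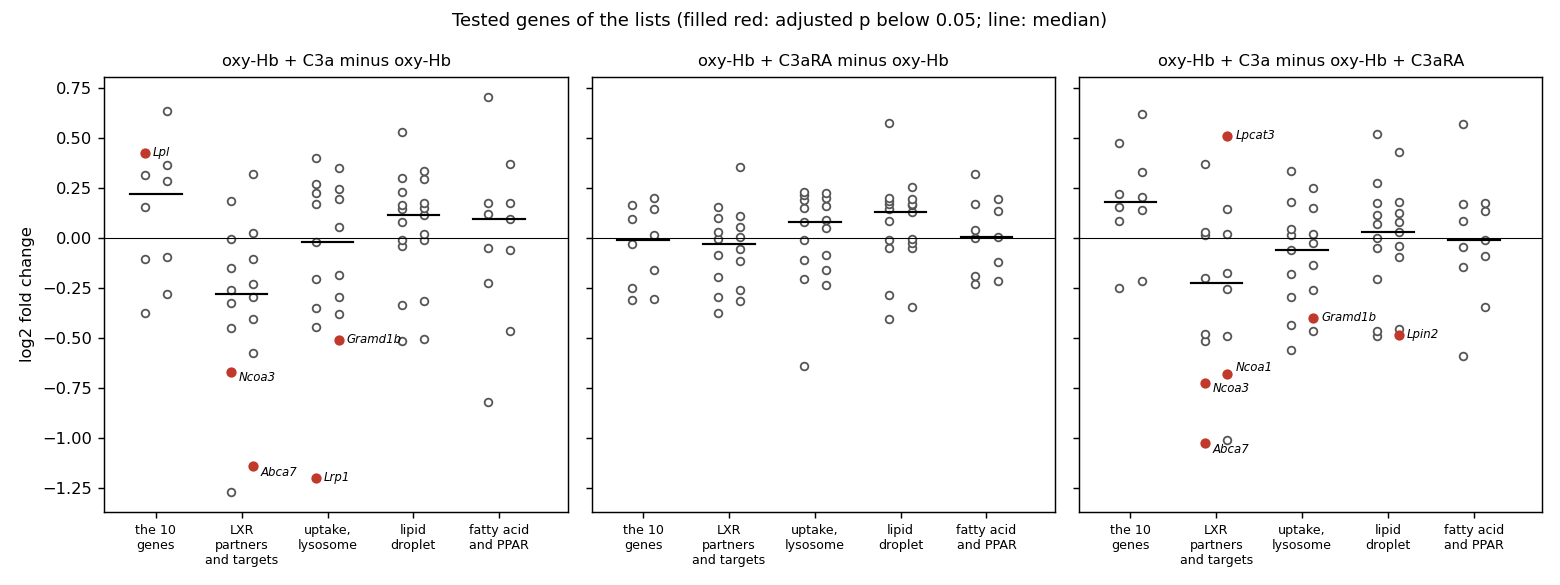
Log2 fold changes of the tested genes of each list in the 3 comparisons; each point is a gene, filled red where the adjusted p was below 0.05, and lines are medians. With C3a against oxy-Hb the red points are Lpl above 0 and Abca7, Ncoa3, Lrp1 and Gramd1b below, and with C3aRA against oxy-Hb there are none.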

How the data were processed

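RNA-seq of BV2 cells was read from 2 tables of raw read counts per gene that the authors deposited, each with oxy-Hb beside 1 addition. The authors' tables also hold a log2 fold change and p-values, whose test, like the aligner, counter and strand setting, is not given in the sources used here, nor are read filters. Builds were GRCm38 and mm10, per the submitters' processing notes. Since 0 oxy-Hb counts differed between the tables, all 9 libraries entered 1 matrix. No 2 replicates agreed within sampling noise (mean chi-square per gene 5.54 to 71.0).

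Counts were fitted with edgeR 4.0.16 (R 4.3.3): filterByExpr (minimum count 10) left 14146 genes, all members among them, scaled by TMM, with 1 coefficient per group and the robust quasi-likelihood F test. P-values were adjusted over all genes (Benjamini-Hochberg) and called below 0.05. Intervals are 95%. The steps were tested on simulated data, which held no outlying library and no bias of length or GC. That test therefore does not cover a library like C3a replicate 2. Lengths, GC content and overlaps came from GENCODE M21, where 9 of 10 members had identical coordinates.

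Members and lists were chosen with earlier results of these data known. All members were named, with up to 4 called genes per list, or that of the lowest p. Alternatives were other scalings, filters and thresholds, DESeq2 1.42.0, limma-voom 3.58.1, 2-group fits, the replicate number as a block, a length and GC correction by splines, and leaving out each library. That correction without C3a replicate 2, and library quality weights, were chosen after seeing the data. Marker sums are not TMM-scaled. Some genes of the lists are not reported here, and list counts and medians leave them out.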

Additional observations from a re-analysis of the deposited data

How the results depend on the processing

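The alternatives gave 687 log2 fold changes of the members. Those at the thresholds 0.01 and 0.1 reuse the estimates of the main fit, so only their calls could change. Of the 687, 634 kept direction and side of the threshold, 24 gained a call and 8 lost one (all Lpl with C3a against oxy-Hb). The other 21 changed sign, none of them called in the fit of 9 libraries, and the cause was not tested. With C3a against oxy-Hb, 1 member was called, beside 558 of all genes. There were 2 with no count filter (1033 of all genes), DESeq2 (1353), the length and GC correction (1005) or at 0.1 (1458). In the 2-group fit (99) or at 0.01 (101) there were 0. The correction without C3a replicate 2 called 3 (Fabp5 added, 11.5% of all genes). Quality weights called 4 (Fabp5 and Nr1h2 added, 11.4%). With 1 library left out, 0 to 2 were called, beside 54 to 1638 of all genes. With C3aRA, 2 members (Fabp5 and Plin2) were called with the correction without C3a replicate 2 (7.64% of all genes). Otherwise 0 were, leaving out 1 library included. With C3a against C3aRA, 1 (Lpl) was called with no filter, a 5 CPM mean filter, limma-voom or 0.1. It was also called with DESeq2 (10.8% of all genes), the correction (8.29%) or quality weights (13.8%). The correction without C3a replicate 2 called 2 (13.5%). With 1 library left out, 0 to 2 were called, beside 53 to 1827 of all genes.

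Sign changes with C3a against oxy-Hb were those of Abca1 (0.191 with the correction, 0.267 with it and without C3a replicate 2, 0.027 with quality weights, -0.393 to 0.136 with 1 library left out) and Mylip (0.07 with the correction without that library, -0.241 to 0.055 with 1 left out). With C3aRA they were those of Abcg1 (0.026 with the correction, 0.023 with it and without that library, -0.099 to 0.091 with 1 left out) and Soat1 (-0.051 with library totals, -0.005 with upper quartile scaling, -0.003 with a mean of at least 5 CPM, -0.038 to 0.078 with 1 left out). With C3a against C3aRA they were those of Abca1 (-0.087 to 0.449 with 1 left out), Plin2 (-0.087 with the correction without that library, -0.014 with quality weights, -0.09 to 0.713 with 1 left out) and Fabp5 (-0.018 with the correction without that library).

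Calls over all genes were 558 (54 to 1679 over the alternatives) with C3a against oxy-Hb, 0 (0 to 1116) with C3aRA and 876 (53 to 1977) between the additions. Same-numbered libraries had deviations that correlated by -0.041 to 0.17 and matched best in 9 of 18 cases. This does not settle whether the numbers pair the libraries. With the replicate number as a block 1, 0 and 0 members were called. With C3a against oxy-Hb that block fit called 835 of all genes, against 558 without the block. Nr1h3 had the fewest counts of the members (26 to 90).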
